A study of Mus musculus with 3 samples.

Results

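Mature Cxcr2 neutrophils were 3814 of 71014 mouse bone marrow cells, with 756 from Sham, 1622 from MI and 1436 from MI-E. They were picked cell by cell from raw UMI counts (a UMI is 1 counted RNA molecule). A cell had to hold at least 1 UMI of Cxcr2 and at least 3 UMIs of Csf3r, Retnlg and Mmp9 together, under 1% of its UMIs in the granule genes Camp, Ngp and Ltf, at least 2% in S100a8 and S100a9, and no Cd79a. Before that, barcodes with under 300 genes, under 500 UMIs or over 10% mitochondrial UMIs were left out. The marrow, from the tibia and femur of C57BL/6J mice, had passed through a Ficoll density gradient. Sham is the control group, named only so in the labels. MI had myocardial infarction through ligation of the coronary artery LAD under isoflurane. MI-E is labelled MI with EMPA, and the labels do not spell out EMPA. How long after surgery the marrow was taken, how many mice stand behind a library, and the dose of EMPA are not given in the sources used here. Each group has 1 library, so no difference was tested, and all values describe these 3 libraries. Intervals are exact, at 95%, and cover counting error only.

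Neutrophils are made in the marrow from dividing progenitors and then fill their granules in a fixed order, primary before secondary before tertiary. Late in this sequence they stop making granule proteins, gain the chemokine receptor Cxcr2 and the G-CSF receptor Csf3r, and become able to leave the marrow, which Cxcr2 promotes and Cxcr4 restrains. Mature marrow neutrophils are a reserve that can be released within hours after tissue injury.

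Sham held 99657072 UMIs over 25721 barcodes. MI held 127330601 over 23810 and MI-E 109451500 over 22857. Of the cells kept, 167 barcodes occurred in both Sham and MI, 165 in Sham and MI-E and 152 in MI and MI-E, and 3 of the barcodes shared by MI and MI-E belonged to members in both. The libraries were unlike in make-up. Cells in a wide neutrophil window (the S100 and Cd79a conditions, and at least 3 UMIs of Csf3r, Retnlg, Mmp9, Camp, Ngp and Ltf together) were 12.7% of Sham cells, 41.1% of MI cells and 30.2% of MI-E cells. Cells with at least 2 UMIs of Cd79a, a B cell gene, and no Cxcr2 UMI numbered 12035, 3832 and 5017, and are called cells with Cd79a below. The Cd79a condition was the last one applied and removed Sham cells most, leaving 756 of 1014, against 1622 of 1759 in MI and 1436 of 1644 in MI-E.

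The label was held against genes the rule had not used. Il1b, which encodes interleukin 1 beta and is a marker of this group, stood at 519 CPM in Sham, against 282 in MI and 332 in MI-E. CPM means UMIs per 1000000 UMIs of the members of a library, summed over cells. In cells that are not members Il1b stood at 17.4, 12.1 and 14.7 CPM. The markers used by the rule are given only as a description. Cxcr2 stood at 797 CPM in Sham, against 867 in MI and 981 in MI-E, Csf3r at 823 CPM in Sham, against 498 in MI and 670.1 in MI-E and Retnlg, a secreted resistin-like protein, at 14254 CPM in Sham, against 15266 in MI and 13355 in MI-E. A list of 30 late neutrophil markers summed to 17700, 22556 and 21490 CPM in members, against 5987, 10535 and 8304 in the other cells. All 30 genes had UMIs in the members and also in the other cells of each library, so detection alone does not set the members apart.

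Depth split the members. Cells of 4000 UMIs or more were 124 of the 756 Sham members, 373 of the 1622 MI members and 244 of the 1436 MI-E members, yet they held 1082920 of 2128944, 4117644 of 6228487 and 2816271 of 4794478 member UMIs. Doublet scoring, which marks barcodes that look like 2 cells, called 94 of 124, 295 of 373 and 187 of 244 of these deep members, against 18.65%, 21.64% and 16.92% of all members. Deep members also held more RNA of other cell types. A list of monocyte markers summed to 5097, 6530 and 6152 CPM in deep members and to 1622, 1362 and 1171 in members under 4000 UMIs, and dividing cell genes to 5299, 5838 and 6553 against 2015, 1605 and 2039. All 15 monocyte markers were detected in the members of each library, and all 12 dividing cell genes. The deep members therefore go against the label in part, and levels in members under 4000 UMIs, an alternative added after the data were seen, stand beside a gene where its ratio between libraries moved by over 1.5 times, and beside some others.

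**Figure D1:**
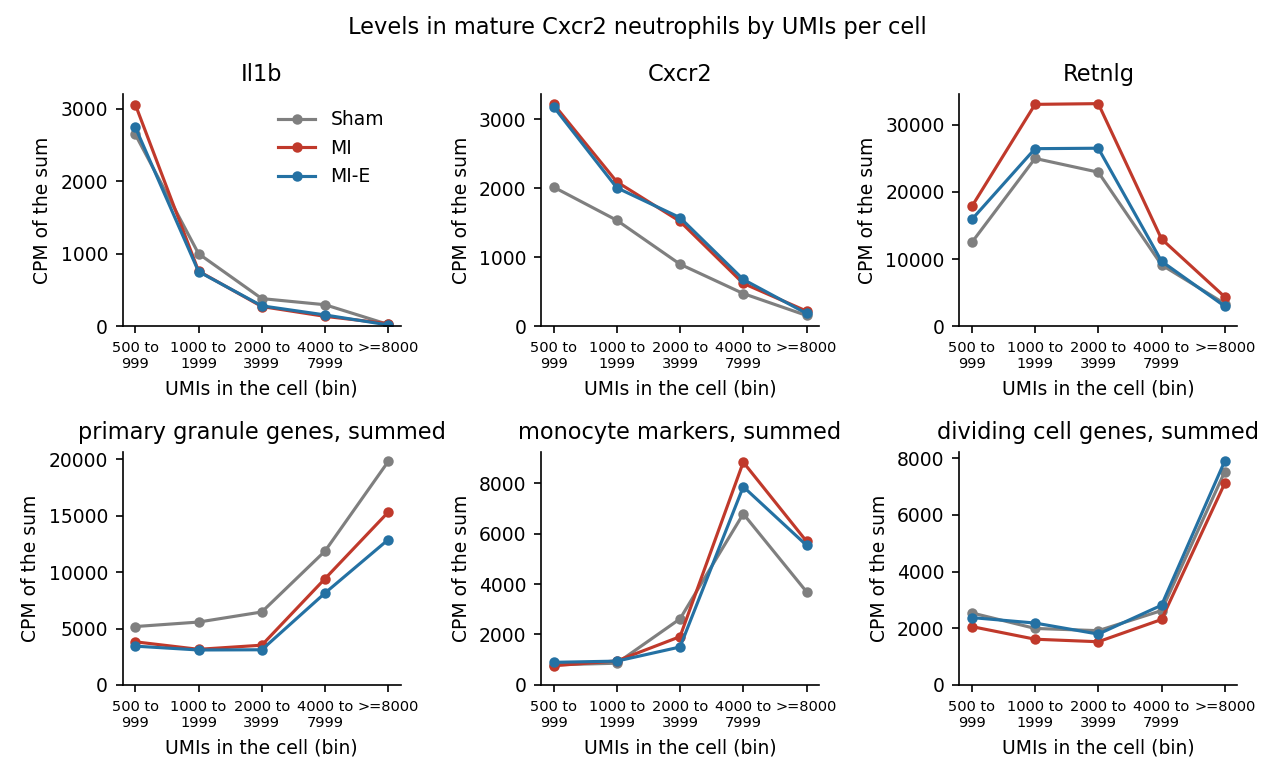
Each panel plots a level in CPM (UMIs summed over the cells of a bin, per 1000000) against the UMIs per cell in 5 bins, with 1 line per library. Il1b and Cxcr2 are highest in the shallowest cells, Retnlg peaks between 1000 and 4000 UMIs, and primary granule, monocyte and dividing cell genes are highest in cells of 4000 UMIs or more. The rule's minimum of 1 Cxcr2 UMI sets a higher CPM floor in shallow cells, so part of the Cxcr2 slope was fixed in advance.

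The depth gradient had the same shape in the 3 libraries. Il1b stood at 2645, 3057 and 2744 CPM in members under 1000 UMIs and at 27.1, 38.4 and 20.3 CPM in those of 8000 or more. Csf3r went from 2983, 2485 and 3248 CPM to 162, 128 and 133 over the same bins. Retnlg was highest in between, at 24962, 32996 and 26413 CPM from 1000 to 2000 UMIs and 22920, 33104 and 26478 from 2000 to 4000, and so was the collagenase gene Mmp8, at 2756, 2888 and 3983 CPM from 2000 to 4000 UMIs. The rule asks for at least 1 UMI of Cxcr2 and at least 3 of Csf3r, Retnlg and Mmp9 together. A shallow cell can reach these minimums only at a higher CPM. Part of the fall of Cxcr2 and Csf3r with depth was therefore fixed by the rule. The share of cells with a UMI of the division genes Mki67, Top2a or Birc5 was 4.48%, 5.41% and 6.31% under 1000 UMIs and 88.9%, 80.4% and 92.1% at 8000 or more. That share also grows with depth alone, so no cycling is read from it. Members had medians of 1698.5, 1837 and 1766.5 UMIs per cell, and their median mitochondrial share was 1.49% in Sham, against 0.765% in MI and 0.763% in MI-E.

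Members were a larger share of all cells after infarction. They made up 3.02% (2.81 to 3.24) of kept cells in Sham, 6.92% (6.59 to 7.25) in MI and 6.38% (6.06 to 6.71) in MI-E, so that the MI share was 2.29-fold and the MI-E share 2.11-fold that of Sham. Within the neutrophil window the order turned. Members were 23.8% (22.4 to 25.4) of window cells in Sham, 16.8% (16.1 to 17.6) in MI and 21.1% (20.2 to 22.1) in MI-E. Granule-rich neutrophils, an earlier stage taken here as cells with at least 5% of UMIs in Camp, Ngp and Ltf that met the S100 and Cd79a conditions and held no UMI of the division genes, were 27.7%, 27.9% and 27.8% of the same window. Members under 4000 UMIs alone gave 2.52%, 5.33% and 5.30% of all cells. A density gradient sorts cells by density, and its part in the neutrophil shares was not tested.

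**Figure D2:**
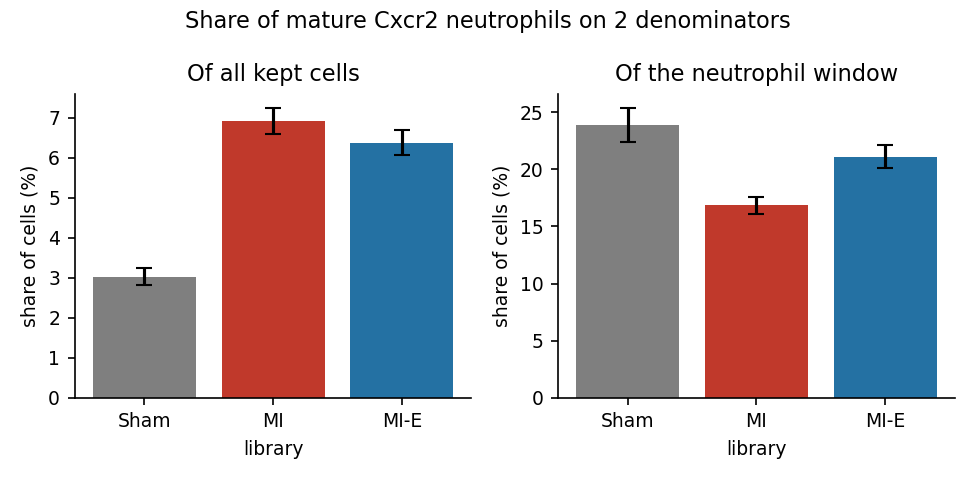
Bars are the share of mature Cxcr2 neutrophils in percent of all kept cells (left) and of the neutrophil window (right) in the 3 libraries, with exact 95% intervals for counting error. The MI and MI-E bars are above Sham on the left (6.92% and 6.38% against 3.02%) and below it on the right (16.8% and 21.1% against 23.8%).

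Cells also lay just outside each threshold of the rule, and Il1b is given for both sides. Some of these levels rest on few Il1b UMIs, as in Sham at the granule threshold, with 11 inside and 24 outside. The sides could also differ in depth. In Sham, cells inside and outside the Csf3r, Retnlg and Mmp9 threshold had medians of 761 and 14388.5 UMIs. Members with exactly 1 Cxcr2 UMI (306, 333 and 301 cells) held Il1b at 406, 284 and 380.0 CPM, and the cells that met every other condition without a Cxcr2 UMI (261, 249 and 264) at 280.3, 86.7 and 126 CPM. At the granule threshold, members with 0.8% to 1% granule UMIs held Il1b at 54.0, 93.8 and 105 CPM, and cells with 1% to 1.2% at 197, 31.9 and 21.996. For Csf3r, Retnlg and Mmp9, members with 3 UMIs (9, 28 and 16 cells) held 1689, 183 and 415 CPM, and cells with 2 UMIs (10, 47 and 17) 72.4, 23.3 and 161. For the S100 genes, members at 2% to 2.4% (10, 13 and 18 cells) held 154, 42.9 and 142 CPM, and cells at 1.6% to 2% (7, 11 and 11) 182, 153 and 85.0007.

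Of all genes, 7473 averaged at least 10 CPM in members across the libraries. Of these, 2.64% were at least 2-fold higher in MI than in Sham and 3.44% at least 2-fold lower. The corresponding shares were 2.22% and 2.56% for MI-E against Sham, and 0.321% and 0.241% for MI-E against MI. In members under 4000 UMIs, 5934 genes reached the minimum, with 4.57% higher and 6.89% lower in MI, 3.42% and 5.22% in MI-E against Sham, and 1.18% and 1.62% in MI-E against MI. Ratios are less exact at fewer UMIs. MI and MI-E are compared with the same Sham library, so their folds are given side by side and not as separate observations.

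Several cytokine receptors were higher in both infarct libraries. Il1r2 (chr1:40074079-40125231, GRCm38), the decoy receptor that binds interleukin 1 without signalling, stood at 79.4 CPM in Sham, against 467 in MI and 327 in MI-E. It was 5.89-fold (5.04 to 6.92) higher in MI and 4.12-fold (3.51 to 4.86) higher in MI-E than in Sham, and in members under 4000 UMIs its levels were 132, 966 and 639 CPM. Il4ra, the shared receptor chain for interleukins 4 and 13, stood at 46.97 CPM in Sham, against 195 in MI and 170.2 in MI-E, 4.15-fold (3.38 to 5.14) and 3.62-fold (2.94 to 4.51) higher. Il13ra1, its partner chain, stood at 38.99 CPM in Sham, against 96.8 in MI and 105 in MI-E, 2.48-fold (1.97 to 3.16) and 2.69-fold (2.13 to 3.44) higher, and at 47.8, 201 and 177 CPM under 4000 UMIs. Csf2rb, the signalling chain of the GM-CSF receptor, stood at 120.2 CPM in Sham, against 244 in MI and 247 in MI-E, whereas its partner Csf2ra stood at 208 CPM in Sham, against 181 in MI and 198 in MI-E and differed from Sham by less than 1.2-fold in both. Of 20 measured receptors out of 21 listed, 6 were at least 2-fold higher in MI and 6 in MI-E, against 2.64% and 2.22% of all genes. None was 2-fold lower, and the median log2 ratios were 0.23 and 0.26, beside 0.08 and 0.09 over all genes. Under 4000 UMIs the medians were 0.43 and 0.39, beside -0.09 and -0.06.

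Receptors that steer neutrophils showed both directions. Fpr2, a receptor for formylated peptides and lipid signals, stood at 315 CPM in Sham, against 585 in MI and 613 in MI-E, 1.86-fold (1.71 to 2.02) and 1.95-fold (1.79 to 2.12) higher than in Sham. Cxcr4, the receptor that holds neutrophils in the marrow, stood at 217 CPM in Sham, against 88.3 in MI and 133 in MI-E, 2.45-fold (2.16 to 2.78) lower in MI and 1.63-fold (1.44 to 1.84) lower in MI-E, and at 293, 90.96 and 146 CPM under 4000 UMIs. The complement receptor C5ar1 stood at 245 CPM in Sham, against 187 in MI and 225 in MI-E, and the chemokine receptor Ccr1 at 361 CPM in Sham, against 367 in MI and 409 in MI-E. Ccr2, better known on monocytes, stood at 289.8 CPM in Sham, against 347 in MI and 351 in MI-E over all members but at 79.3, 85.3 and 42.5 CPM under 4000 UMIs. Of 12 measured chemoattractant receptors out of 17, 2 were 2-fold higher and 2 were 2-fold lower in MI, against 2.64% and 3.44% of all genes, with a median log2 ratio of 0.21.

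Adhesion genes leaned lower in MI. Jaml, a junctional adhesion protein of migrating leukocytes, stood at 160.2 CPM in Sham, against 41.3 in MI and 59.7 in MI-E, 3.88-fold (3.29 to 4.58) lower in MI and 2.69-fold (2.29 to 3.15) lower in MI-E. Cd44, a hyaluronan receptor, stood at 469 CPM in Sham, against 316 in MI and 421 in MI-E. The tetraspanin gene Cd9 stood at 286 CPM in Sham, against 119.6 in MI and 177 in MI-E. In each of these 3 genes Sham was the highest library and MI the lowest, with MI-E in between. Of 15 measured adhesion and egress genes, 11 were lower in MI (median log2 ratio -0.35) and 9 lower in MI-E (median -0.01, which turned positive under 7 of 17 alternatives). Against MI, 14 of 15 were higher in MI-E, with a median of 0.35. None was higher by 2-fold, against 0.321% of all genes.

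Most cytokine and mediator genes were lower in both infarct libraries. Ptgs2, the inducible cyclooxygenase, stood at 141 CPM in Sham, against 22.6 in MI and 30.2 in MI-E, 6.22-fold (5.08 to 7.66) and 4.66-fold (3.81 to 5.72) lower than in Sham, and at 257, 57.8 and 58.6 CPM under 4000 UMIs. Il1rn, the soluble interleukin 1 receptor antagonist, stood at 109 CPM in Sham, against 32.4 in MI and 40.05 in MI-E. The chemokine genes Ccl3 and Ccl4 stood at 134, 39.5 and 33.997 CPM and at 84.5, 36.9 and 28.6 CPM in Sham, MI and MI-E. In each of these 4 genes both infarct libraries were below Sham. Osm, which encodes oncostatin M, stood at 291 CPM in Sham, against 133 in MI and 153 in MI-E, and Hdc, which makes histamine, at 472 CPM in Sham, against 219 in MI and 267 in MI-E, a smaller difference under 4000 UMIs (1.66-fold and 1.58-fold lower in MI).

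Il1b itself was 1.84-fold (1.71 to 1.99) lower in MI and 1.56-fold (1.45 to 1.69) lower in MI-E over all members. Under 4000 UMIs its levels were 899.6, 704 and 723 CPM, or 1.28-fold and 1.24-fold lower. Cxcl2, a chemokine that binds Cxcr2, ran the other way, at 293 CPM in Sham, against 607 in MI and 365 in MI-E, 2.07-fold (1.903 to 2.26) higher in MI but 1.25-fold (1.14 to 1.37) higher in MI-E. Alox5ap, which hands arachidonic acid to the leukotriene pathway, stood at 1032 CPM in Sham, against 1767 in MI and 1607 in MI-E. Of 19 measured genes out of 24, 7 were at least 2-fold lower and 1 higher in MI, and 5 were lower and none higher in MI-E. Of all genes 3.44% were lower and 2.64% higher in MI, and 2.56% and 2.22% in MI-E. The list had medians of -0.81 and -0.64. Under 4000 UMIs the medians were -0.62 and -0.54. The summed level of the list was much alike in the 3 libraries, at 4978, 4484 and 4270 CPM.

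The inflammasome genes, which activate caspase 1 and so mature Il1b, were few. Nlrp3, the sensor, stood at 84.1 CPM in Sham, against 36.6 in MI and 41.5 in MI-E. Pycard, the adaptor, stood at 135 CPM in Sham, against 283 in MI and 217 in MI-E over all members and at 62.1, 105 and 71.8 CPM under 4000 UMIs. The median of the 9 measured genes was -0.17 in MI and -0.06 in MI-E against Sham.

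**Figure D3:**
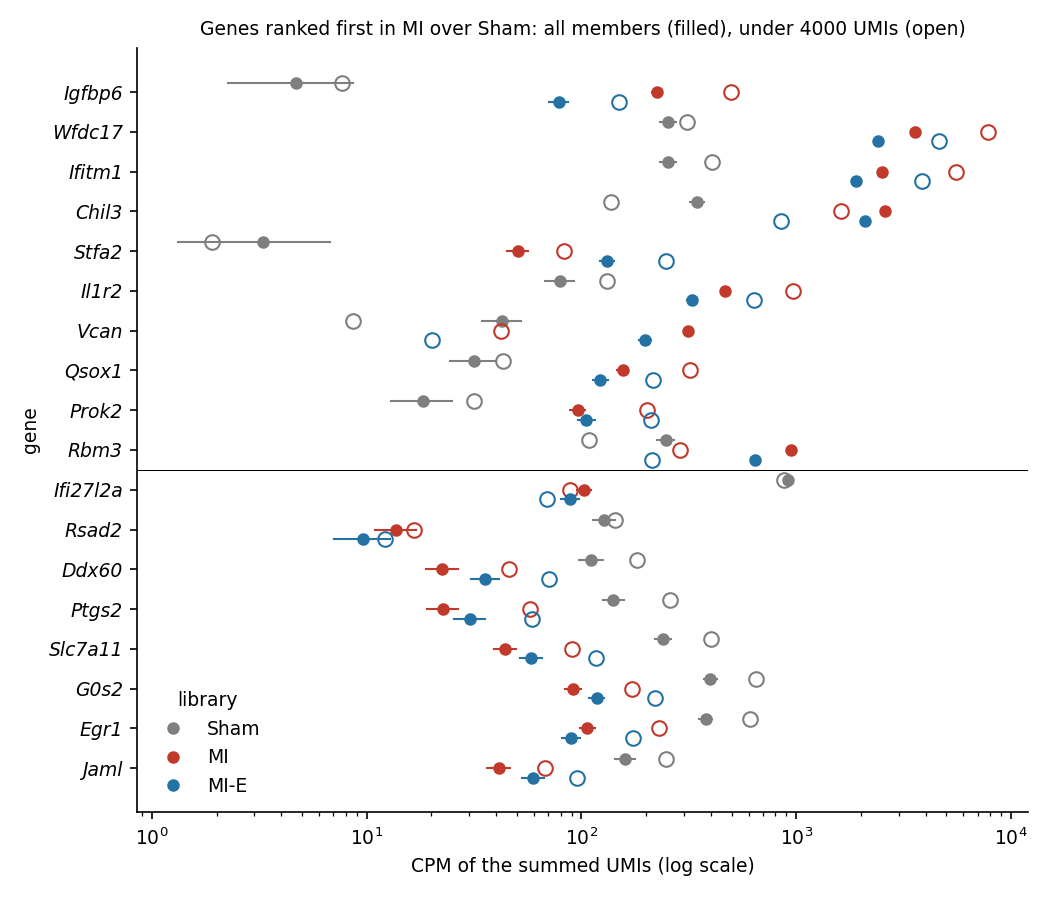
Levels of 18 of the 20 genes ranked first in MI over Sham (10 higher above the line, 8 lower below it, the haemoglobin genes Hba-a2 and Hbb-bt left out) on a log scale, with filled points for all members, bars for exact 95% counting intervals and open points for members under 4000 UMIs. In the upper genes both infarct libraries lie above Sham, as for Wfdc17 at 253 against 3555 and 2392 CPM, and in the lower genes both lie below it.

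Of the genes ranked higher in MI over Sham, Igfbp6 came first. Igfbp6 (chr15:102144362-102149511), a secreted protein that binds insulin-like growth factors, stood at 4.697 CPM in Sham, against 225 in MI and 78.4 in MI-E, 47.8-fold (25.9 to 99.9) higher in MI and 16.7-fold (8.98 to 35.1) higher in MI-E. Wfdc17 (chr11:83703991-83706268), a small secreted WAP-domain protein, stood at 253 CPM in Sham, against 3555 in MI and 2392 in MI-E, 14.04-fold (12.9 to 15.3) and 9.45-fold (8.67 to 10.3) higher. Both genes were lowest in Sham and highest in MI, and the contrast was wider under 4000 UMIs, where Igfbp6 stood at 7.65, 499 and 150.1 CPM and Wfdc17 at 309.7, 7817 and 4606 CPM. Ifitm1 (chr7:140967221-140969825), a membrane protein of the interferon-induced transmembrane family, stood at 253 CPM in Sham, against 2520 in MI and 1897 in MI-E, 9.95-fold (9.13 to 10.9) and 7.49-fold (6.87 to 8.19) higher. Its neighbour Ifitm6 (chr7:141015699-141017924) stood at 723 CPM in Sham, against 2674 in MI and 2205 in MI-E, and Ifitm2 at 617 CPM in Sham, against 1339 in MI and 960.3 in MI-E. Prok2, a secreted chemoattractant also called Bv8, stood at 18.3 CPM in Sham, against 95.8 in MI and 106 in MI-E, and Qsox1, a sulfhydryl oxidase, at 31.5 CPM in Sham, against 155 in MI and 122 in MI-E, with 43.02, 319.8 and 215 CPM under 4000 UMIs. Vcan, the proteoglycan versican, stood at 42.7 CPM in Sham, against 313 in MI and 198 in MI-E, but it is a gene of the monocyte list, and under 4000 UMIs its levels were 8.604, 42.2 and 20.2 CPM.

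Of the remaining acute-phase genes, Lrg1, a secreted glycoprotein, stood at 199 CPM in Sham, against 645 in MI and 780.1 in MI-E, 3.24-fold (2.93 to 3.59) and 3.92-fold (3.54 to 4.34) higher. Lcn2, which starves bacteria of iron, stood at 2402 CPM in Sham, against 4070 in MI and 3642 in MI-E, and Wfdc21 at 2649 CPM in Sham, against 4353 in MI and 4262 in MI-E. Pglyrp1, which binds bacterial peptidoglycan, stood at 1197 CPM in Sham, against 942 in MI and 1140 in MI-E and differed by less than 2-fold. The list of WAP-domain and acute-phase genes had 8 measured members of 11, with 3 at least 2-fold higher in each infarct library, against 2.64% and 2.22% of all genes, none 2-fold lower, and medians of 0.74 and 0.64.

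Granule genes other than those used by the rule showed both directions. Chil3, a chitinase-like protein of secondary granules, stood at 344 CPM in Sham, against 2603 in MI and 2095 in MI-E, 7.56-fold (7.02 to 8.15) and 6.09-fold (5.65 to 6.57) higher, and at 137, 1625 and 852 CPM under 4000 UMIs. With cells thinned to 800 UMIs it was detected in 8.58%, 57.3% and 37.1% of members under 4000 UMIs and in 7.61%, 27.5% and 22.4% of cells with Cd79a, which should lack it, so in Sham the members were near that background. Mmp8, the neutrophil collagenase, stood at 1692 CPM in Sham, against 1561 in MI and 2082 in MI-E. Secondary granule genes as a list had 17 measured members of 18, with 12 higher in MI and 14 in MI-E, and medians of 0.24 and 0.43 (0.40 and 0.72 under 4000 UMIs). Summed per cell the contrast was wider. Members under 4000 UMIs, thinned to 800 UMIs, held medians of 11, 22 and 21 UMIs of the list in Sham, MI and MI-E. Their means were 11.8, 22.3 and 21.1, beside 0.799, 2.83 and 2.00 in cells with Cd79a. A sum is weighted to the abundant genes, whereas the list median weights genes alike. The libraries also differed in how many members lay near the 1% limit on granule genes. Members with 0.8% to 1% granule UMIs numbered 38 of the 756 from Sham, 185 of the 1622 from MI and 133 of the 1436 from MI-E, and the part of this in the list's level was not tested.

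Primary granule genes were highest in the deep cells. Elane, neutrophil elastase, stood at 1243 CPM in Sham, against 1231 in MI and 852 in MI-E over all members and at 73.6, 76.7 and 69.8 CPM under 4000 UMIs, and Prtn3, proteinase 3, at 1184 CPM in Sham, against 1543 in MI and 1330 in MI-E against 70.7, 103 and 105 CPM. Lyz2, the lysozyme gene, was lower in both infarct libraries, at 5815 CPM in Sham, against 3847 in MI and 3068 in MI-E, and the contrast was wider under 4000 UMIs, at 4383, 1333 and 1586 CPM. Cells with Cd79a, which should lack Lyz2, held it at 2912, 2968 and 2280 CPM. Per cell the order was another. With cells thinned to 800 UMIs, Lyz2 was detected in 87.7%, 52.8% and 65.6% of members under 4000 UMIs and in 23.4%, 26.9% and 21.7% of cells with Cd79a. Tertiary granule and secretory vesicle genes had medians of -0.08 and 0.03 over 10 measured genes, with none at least 2-fold apart. NADPH oxidase genes, whose products make superoxide, gave -0.24 and -0.01 over 7 genes, none of them 2-fold apart. Of all genes 3.44% were at least 2-fold lower and 2.64% higher in MI, and 2.56% and 2.22% in MI-E. A count of none in lists this short does not set them apart from all genes.

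Stefins, inhibitors of cysteine proteases encoded by a cluster of near-identical genes on chromosome 16, were highest in MI-E. Stfa2 (chr16:36403992-36408457) stood at 3.29 CPM in Sham, against 50.4 in MI and 132 in MI-E, Cstdc5 (chr16:36359382-36367748) at 23.5 CPM in Sham, against 59.2 in MI and 180.2 in MI-E and Cstdc4 (chr16:36184212-36188111) at 548 CPM in Sham, against 444 in MI and 1217 in MI-E. Against MI, MI-E was 2.61-fold (2.28 to 3.003) higher for Stfa2, 3.04-fold (2.69 to 3.45) for Cstdc5 and 2.74-fold (2.62 to 2.87) for Cstdc4. Stfa2l1 stood at 292 CPM in Sham, against 446 in MI and 718 in MI-E and Stfa1 at 78.4 CPM in Sham, against 112 in MI and 159.6 in MI-E. Under 4000 UMIs Stfa2 stood at 1.91, 82.9 and 249 CPM and Stfa1 at 86.996, 211 and 284 CPM, so the ratios to Sham were wider there. For Stfa2 the Sham level rests on very few counts. A Stfa2 UMI was found in 5 of 756 Sham members and in 2 of 632 under 4000 UMIs, so the size of its ratios to Sham is uncertain. Sham held the lowest level of Stfa2, Cstdc5, Stfa2l1 and Stfa1, but not of Cstdc4, where MI was lowest. Of 7 measured stefins out of 11, 6 were at least 2-fold higher in MI-E than in Sham and 4 than in MI, against 2.22% and 0.321% of all genes. Cstb, the stefin B gene, lies outside the cluster and stood at 109.9 CPM in Sham, against 157 in MI and 131 in MI-E. Reads of copies this alike may be split or lost in counting, so levels of single cluster genes are uncertain.

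S100 and annexin genes encode calcium-binding proteins, and this list leaves out S100a8 and S100a9, which the rule used. S100a6 stood at 8385 CPM in Sham, against 8708 in MI and 10325 in MI-E, S100a11 at 3973 CPM in Sham, against 3252 in MI and 2883 in MI-E and Anxa1, which limits inflammation, at 586 CPM in Sham, against 930.2 in MI and 908 in MI-E. None of 12 measured genes was 2-fold apart in any comparison. Of all genes, 2.64% were at least 2-fold higher and 3.44% lower in MI, and 2.22% and 2.56% in MI-E against Sham. In MI-E against MI the shares were 0.321% and 0.241%. With shares this small, a count of none among 12 does not set the list apart.

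Interferon-stimulated genes of a list of 51 were mostly lower in both infarct libraries. The list does not hold Ifitm1, Ifitm2 and Ifitm6 of the interferon-induced transmembrane family, which were higher in both (see above). Type I interferon acts through a shared promoter element and switches on antiviral genes. Rsad2, which makes the antiviral enzyme viperin, stood at 128 CPM in Sham, against 13.6 in MI and 9.59 in MI-E, 9.36-fold (7.31 to 12.1) lower in MI and 13.3-fold (9.71 to 18.6) lower in MI-E. Ddx60, an RNA helicase of antiviral sensing, stood at 111 CPM in Sham, against 22.5 in MI and 35.7 in MI-E, 4.93-fold (3.98 to 6.12) and 3.11-fold (2.54 to 3.81) lower. Oas3, which makes the second messenger that activates RNase L, stood at 92.1 CPM in Sham, against 28.6 in MI and 37.5 in MI-E. Sham was the highest of the 3 libraries for each. Slfn4 stood at 302 CPM in Sham, against 143 in MI and 175 in MI-E and Samd9l at 157 CPM in Sham, against 61.7 in MI and 86.1 in MI-E. Of 36 measured genes out of 51, all 36 were lower in MI than in Sham, 21 of them at least 2-fold, against 3.44% of all genes. In MI-E 34 were lower and 22 at least 2-fold, against 2.56% of all genes. The medians were -1.32 and -1.15, and -1.10 and -1.17 under 4000 UMIs, where 33 and 32 of 36 were lower. Between MI-E and MI the median was 0.03.

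**Figure D4:**
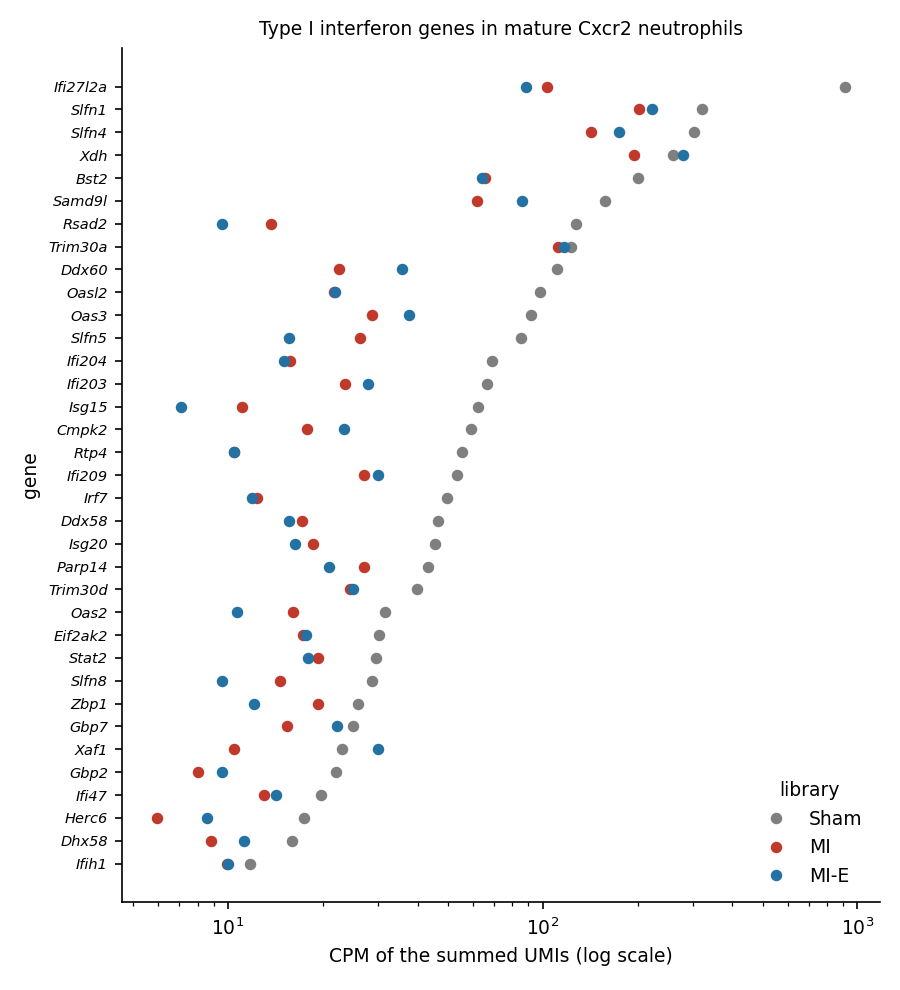
Levels of the measured type I interferon genes, 1 of the 36 left out, in mature Cxcr2 neutrophils, in CPM on a log scale, 1 row per gene in order of the Sham level, with 1 point per library. Sham is above MI in every row drawn and above MI-E in all but 2.

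Other cell types bear on these interferon levels. Ifi27l2a stood at 915 CPM in Sham, against 103 in MI and 88.2 in MI-E in members, the first of the genes ranked lower in MI, yet in cells with Cd79a it stood at 953, 220.3 and 151 CPM. With cells thinned to 800 UMIs it was detected in 31.2%, 5.66% and 4.41% of members under 4000 UMIs, in 39.5%, 14.7% and 10.8% of cells with Cd79a and in 10.5%, 1.81% and 1.297% of granule-rich neutrophils. Members thus lay between the other 2 classes, and the source of this RNA in members was not tested. Rsad2 in cells with Cd79a was 42.8, 13.3 and 7.63 CPM, close to the members in MI and MI-E but not in Sham. Ddx60 was 6.097, 5.94 and 5.598 and Oas3 11.5, 4.11 and 3.57 CPM there, below the members in each library. Bst2, the virus-tethering protein tetherin, stood at 201 CPM in Sham, against 65.7 in MI and 64.03 in MI-E in members, and the direction of MI over Sham turned when cells with a Ly6c2, Csf1r or F13a1 UMI were left out.

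The promoters of Rsad2, Ddx60 and Oas3 are shown because they are named above and hold a match before their start site. They were chosen after their values were seen. Bst2 also holds 2 matches, at -130 and -124 from its start site, and is not printed. The motif searched was GAAA, any 2 bases and GAAA again, on both strands (TTTC, any 2 bases and TTTC on the other), a spelling of the interferon-stimulated response element. RefSeq promoters on GRCm38.p6, each 250 bases before to 50 after a start, were found for 40 of the 51 list genes, and 24 of the 40 held the motif, against 3.99% of 27025 genes in the table. Capitals mark the motif. Bases run from 5′ to 3′ on the gene's strand, and the stretches lie at chr12:26456523-26456612, minus strand for Rsad2, chr8:61927994-61928086, plus strand for Ddx60 and chr5:120777685-120777774, minus strand for Oas3.
Rsad2: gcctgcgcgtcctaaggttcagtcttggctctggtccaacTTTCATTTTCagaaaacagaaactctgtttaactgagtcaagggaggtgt
Ddx60: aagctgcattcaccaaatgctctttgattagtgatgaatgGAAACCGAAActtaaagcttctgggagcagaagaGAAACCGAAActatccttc
Oas3: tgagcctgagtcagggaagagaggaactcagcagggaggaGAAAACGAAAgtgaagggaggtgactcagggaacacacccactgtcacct
Counted from the start site, the match begins at position -120 in Rsad2 and -75 in Oas3, and Ddx60 holds 2 matches, at -53 and -19. Of other lists, 1 of 23 immediate early genes, 2 of 17 cytokine receptors and 0 of 6 stefins in the table held the motif. A match is a description of these letters and not evidence that a factor was bound.

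Genes of antigen presentation by MHC class I were lower in the same libraries. H2-D1 stood at 1358 CPM in Sham, against 903 in MI and 961 in MI-E and B2m, the shared light chain, at 943 CPM in Sham, against 543 in MI and 609 in MI-E. Of 15 measured genes 13 were lower in MI and 14 in MI-E, with medians of -0.45 and -0.50, and 1 was past 2-fold in each. Of all genes 3.44% were at least 2-fold lower and 2.64% higher in MI, and 2.56% and 2.22% in MI-E.

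Immediate early genes, which cells switch on within minutes of a stimulus, were mostly lower after infarction. Egr1, a zinc finger transcription factor, stood at 378 CPM in Sham, against 107 in MI and 89.3 in MI-E, 3.55-fold (3.196 to 3.94) lower in MI and 4.24-fold (3.76 to 4.77) lower in MI-E. Fos stood at 1405 CPM in Sham, against 663 in MI and 639.9 in MI-E, Junb at 1934 CPM in Sham, against 1196 in MI and 1388 in MI-E and Ier2 at 876 CPM in Sham, against 393 in MI and 430.1 in MI-E. Btg2, a brake on cell growth, stood at 829.5 CPM in Sham, against 284 in MI and 332 in MI-E. Sham was highest in these 5. Socs3, the feedback inhibitor of G-CSF and interleukin 6 signalling, ran the other way, at 24.4 CPM in Sham, against 89.9 in MI and 89.9 in MI-E, 3.68-fold (2.77 to 4.99) and 3.68-fold (2.76 to 5.01) higher. In all, 20 of 24 measured genes were lower in MI, 10 by at least 2-fold, and 21 were lower in MI-E, 9 by at least 2-fold, against 3.44% and 2.56% of all genes. Ier3, Klf4 and Socs3 were not lower in either, nor Myc in MI, and apart from Socs3 they were picked out after their values were seen. The medians of -0.82 and -0.67 became -0.51 and -0.55 under 4000 UMIs.

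Feedback genes of NF-kB, the main transcription factor of inflammation, had medians near 0. Nfkbiz stood at 248 CPM in Sham, against 102 in MI and 159 in MI-E, Nfkbia, which holds NF-kB in the cytoplasm, at 128 CPM in Sham, against 189 in MI and 169 in MI-E and the kinase gene Pim1 at 345 CPM in Sham, against 293 in MI and 464 in MI-E. Medians over 14 measured genes were -0.16 and 0.04. Glucocorticoid response genes were split as well. Fkbp5, a classical target of the glucocorticoid receptor, stood at 38.5 CPM in Sham, against 86.7 in MI and 101 in MI-E and was 2.25-fold (1.78 to 2.88) and 2.63-fold (2.08 to 3.37) higher, while Btg1 stood at 1288 CPM in Sham, against 607 in MI and 763 in MI-E and Txnip, a regulator of glucose uptake, at 478 CPM in Sham, against 298 in MI and 270.3 in MI-E. Of 18 measured genes in that list 4 were at least 2-fold higher and 3 lower in MI, against 2.64% and 3.44% of all genes, with a median of -0.02. The cold-inducible RNA-binding protein genes Rbm3 and Cirbp were higher in MI, Rbm3 at 247 CPM in Sham, against 947 in MI and 641 in MI-E and Cirbp at 49.8 CPM in Sham, against 100.2 in MI and 83.8 in MI-E. Rbm3 in cells with Cd79a was 576, 1016 and 799.7 CPM, and in members under 4000 UMIs 109, 288 and 214 CPM, so members lay below those cells in each library.

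**Figure D5:**
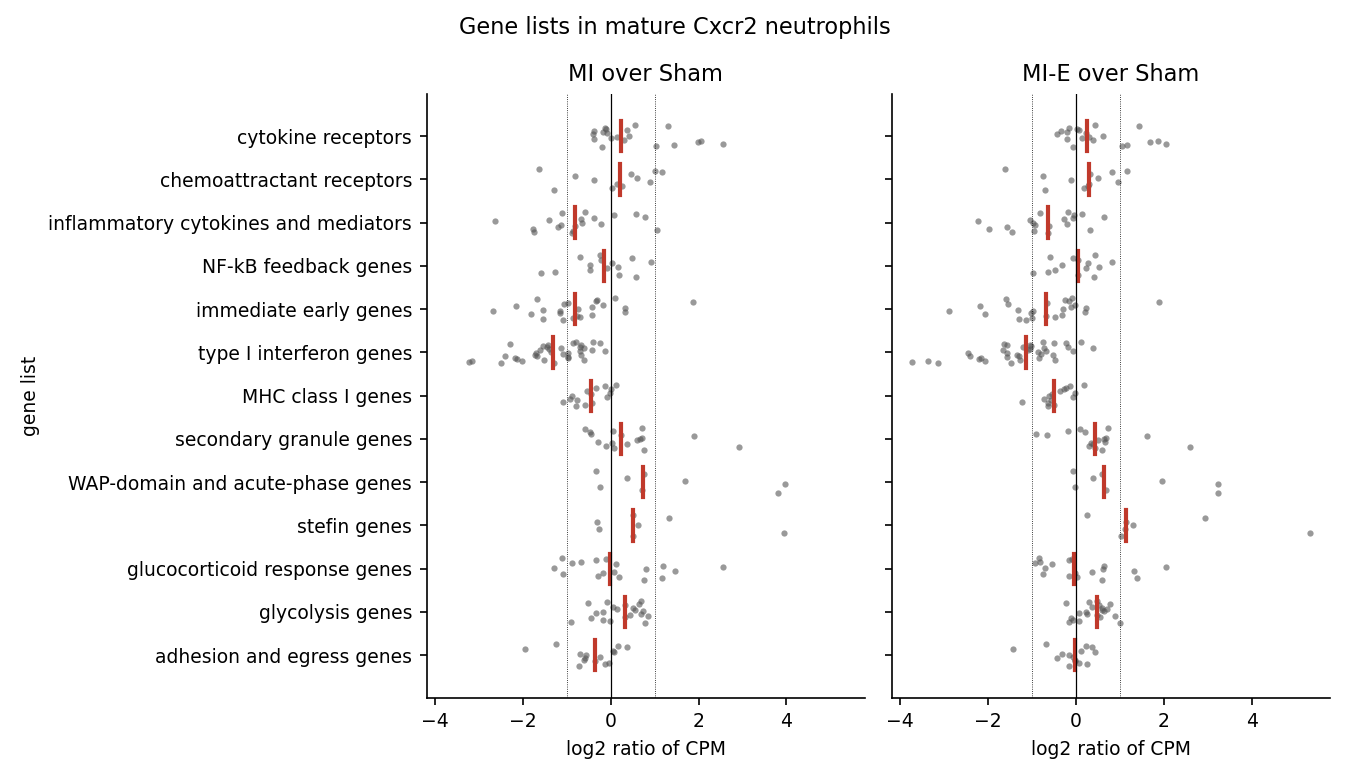
Points are log2 ratios of CPM for each measured gene of 13 lists and red bars their medians, for MI over Sham (left) and MI-E over Sham (right), with dotted lines at 2-fold. Type I interferon genes lie to the left in both panels (medians -1.32 and -1.15), as do immediate early genes (-0.82 and -0.67), and stefins lie to the right, further so in MI-E (1.15 against 0.52).

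Metabolic genes gave smaller contrasts. Glycolysis, the main energy source of neutrophils, had 21 measured genes with medians of 0.31 in MI and 0.48 in MI-E, and of 0.01 and 0.30 under 4000 UMIs. Gpi1 stood at 551 CPM in Sham, against 686 in MI and 799.9 in MI-E and Pkm at 591 CPM in Sham, against 739.99 in MI and 856 in MI-E. Slc7a11, the cystine importer that feeds glutathione synthesis, stood at 239.6 CPM in Sham, against 44.2 in MI and 58.4 in MI-E, 5.43-fold (4.68 to 6.31) and 4.102-fold (3.54 to 4.76) lower than in Sham, and at 402, 90.01 and 117 CPM under 4000 UMIs. The ferritin genes were not uniform, with Fth1 at 2854 CPM in Sham, against 3681 in MI and 2838 in MI-E and Ftl1 at 2489 CPM in Sham, against 2120 in MI and 1907 in MI-E. Among lipid genes, G0s2, which inhibits triglyceride breakdown, stood at 398 CPM in Sham, against 91.5 in MI and 118 in MI-E, 4.35-fold (3.905 to 4.84) and 3.38-fold (3.04 to 3.77) lower. Plin2, which coats lipid droplets, stood at 94.9 CPM in Sham, against 193 in MI and 96.2 in MI-E, highest in MI.

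Survival genes and lineage transcription factors had small list medians in MI, whereas some genes of ageing and extracellular traps differed between the libraries. Mcl1, on which neutrophil survival depends, stood at 626 CPM in Sham, against 677 in MI and 845 in MI-E. None of 16 measured survival and death genes was at least 2-fold lower in MI and 1 was higher, against 3.44% and 2.64% of all genes, and the median was 0.00. Transcription factors of the lineage had medians of -0.13 and -0.09 over 21 genes. None was 2-fold apart, against the same shares of all genes in MI and 2.56% lower and 2.22% higher in MI-E. Spi1, which encodes PU.1, stood at 473 CPM in Sham, against 531 in MI and 564 in MI-E. Of the genes tied to neutrophil ageing, Cd24a stood at 632 CPM in Sham, against 371 in MI and 533 in MI-E, Itgam, an integrin chain, at 373 CPM in Sham, against 364 in MI and 389 in MI-E, and the list had a median of -0.70 in MI and -0.16 in MI-E over 7 genes. Padi4, the enzyme that citrullinates histones in extracellular traps, stood at 98.2 CPM in Sham, against 48.3 in MI and 92.8 in MI-E, lowest in MI, and the linker histone gene Hist1h1c at 296 CPM in Sham, against 83.3 in MI and 145 in MI-E. The direction of the medians of survival, heat shock, tertiary granule, NADPH oxidase, lineage transcription factor, glucocorticoid, NF-kB, inflammasome, S100 and pattern recognition genes in MI turned under at least 1 of 17 alternatives. Heat shock, actin and pattern recognition receptor genes had medians of 0.09, -0.12 and -0.07 in MI. Of the abundant members, Tmsb4x, which binds actin, stood at 20968 CPM in Sham, against 14474 in MI and 14996 in MI-E and Fcer1g, the signalling chain of Fc receptors, at 1489 CPM in Sham, against 1658 in MI and 1321 in MI-E.

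The comparison of MI-E with MI held few wide contrasts. Besides the stefins, Mov10, an RNA helicase, stood at 20.6 CPM in MI and 67.2 in MI-E, 3.27-fold (2.65 to 4.04) higher, and Nampt, which makes NAD, at 40.9 and 83.2, 2.03-fold (1.73 to 2.39) higher. The histone gene Hist1h2ap, copied in the S phase, stood at 133 and 415 over all members but at 9.95 and 34.9 under 4000 UMIs. Lower in MI-E were Thbs1, the matrix protein thrombospondin 1, at 33.8 against 107 CPM, 3.17-fold (2.67 to 3.79) lower, Igfbp6 at 78.4 against 225, 2.86-fold (2.55 to 3.22) lower and Plin2 at 96.2 against 193, 2.01-fold (1.81 to 2.24) lower. Snhg9, a noncoding host of small nucleolar RNAs, stood at 57.1 against 113. In Sham these genes stood at 70.5 CPM for Mov10, 116 for Nampt, 111 for Thbs1 and 33.8 for Snhg9. Under 4000 UMIs Thbs1 stood at 152, 88.1 and 23.8 CPM and Snhg9 at 36.3, 77.2 and 28.3 CPM in Sham, MI and MI-E. Cxcl2 was 1.66-fold (1.57 to 1.76) and Il1r2 1.43-fold (1.34 to 1.52) lower in MI-E than in MI.

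Red cell RNA moved with the libraries. Hbb-bs, a beta globin gene, stood at 12599 CPM in Sham, against 4448 in MI and 2255 in MI-E, and Hba-a2, an alpha globin gene, at 4743 CPM in Sham, against 1161 in MI and 717 in MI-E. The list of 11 erythroid markers summed to 27717, 8844 and 5011 CPM in members and to 31882, 9078 and 7454 in other cells, with all 11 genes detected in the members of each library. B cell markers summed to 1029, 314 and 511 CPM in members, with all 12 detected, beside 9152, 2827 and 3931 in other cells. Their part in the contrasts between libraries was not tested. Car1, an erythroid carbonic anhydrase, stood at 88.8 CPM in Sham, against 76.1 in MI and 27.7 in MI-E (26.8, 14.7 and 16.7 CPM under 4000 UMIs), and its difference between MI-E and MI turned direction under 4000 UMIs.

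Within a library the cells varied. After thinning each cell to 800 UMIs, which left out 61 Sham, 100 MI and 104 MI-E members as too shallow, Wfdc17 was detected in 12.3%, 90.6% and 73.3% of members under 4000 UMIs in Sham, MI and MI-E (17.9%, 94.8% and 81.9% before thinning). In cells with Cd79a, thinned alike, the shares were 3.46%, 7.499% and 6.37%. Ifitm1 was detected in 19.8%, 87.03% and 71.8% of these members and 1.11%, 5.16% and 2.42% of cells with Cd79a, and Il1r2 in 8.23%, 49.96% and 39.2% against 0.118%, 2.06% and 0.622%. Igfbp6 was detected in 0.876%, 31.2% and 11.03% and Stfa2 in 0.175%, 4.003% and 8.18%, so each was detected in a minority of members at this depth. Slc7a11 was detected in 26.1%, 6.88% and 9.19%, G0s2 in 32.6%, 9.83% and 13.9% and Il1b in 36.3%, 31.9% and 28.1%, against at most 0.558% of cells with Cd79a for these 3 genes. Before thinning, the shares for Il1b were 47.9%, 45.4% and 39.6%. Il4ra was detected in 5.78%, 27.6% and 22.4%, and in 5.899%, 6.91% and 8.39% of cells with Cd79a, a type known to express it, so those cells give no background for this gene.

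The lists showed the same spread per cell. At 800 UMIs a member under 4000 UMIs held a median of 3 interferon-gene UMIs in Sham (10th to 90th percentile 0 to 9), 1 in MI (0 to 4) and 2 in MI-E (0 to 4). For immediate early genes the medians were 13, 10 and 10, with 10th to 90th percentiles of 5 to 27, 4 to 18 and 4 to 18. The means for this list were 14.7, 10.6 and 10.5 UMIs. Thinned alike, cells with Cd79a had means of 3.93, 2.57 and 2.81 and granule-rich neutrophils 4.35, 2.6 and 3.003. Sham was thus highest in all these classes, and the cause was not tested. In members under 4000 UMIs cytokine receptors gave medians of 2, 3 and 3. Stefin UMIs were absent from 60.9%, 49.2% and 40.2% of these members, while the 90th percentile was 4, 6 and 12.3 UMIs.

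Related cells of the same libraries gave the following levels, with no test between classes. Igfbp6 stood at 0.601, 27.2 and 7.07 CPM in granule-rich neutrophils and 0.823, 34.1 and 26.97 in Csf1r monocytes (cells with Csf1r and at least 3 UMIs of monocyte genes but no Cxcr2 or Cd79a, and few granule UMIs), below the members in each library. Wfdc17 stood at 38.5, 262 and 157 in granule-rich neutrophils and 430.3, 764 and 747 in monocytes, and Ifitm1 at 24.7, 274 and 151 and 20.5, 227 and 129.5. In all 3 classes both infarct libraries were above Sham for Igfbp6, Wfdc17 and Ifitm1. Chil3 was instead highest outside the members, at 4682, 6390 and 7343 CPM in granule-rich neutrophils and 965, 4701 and 4130 in monocytes. The stefins of granule-rich neutrophils summed to 134, 946 and 719 CPM, so there MI was above MI-E, whereas in members the sums were 1081, 1289 and 2592. Interferon genes had medians of -0.74 in MI and -0.54 in MI-E over 21 measured genes in granule-rich neutrophils.

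Mature neutrophils without a Cxcr2 UMI met every other condition of the rule and numbered 261, 249 and 264. They held interferon genes at medians of -1.18 in MI and -1.27 in MI-E and immediate early genes at -1.36 and -0.99. Wfdc17 stood at 188, 1040 and 687 CPM there, Il1r2 at 55.3, 185 and 98.1 and Slc7a11 at 145, 8.09 and 19.04. Their monocyte markers summed to 3224, 5440 and 4493 CPM, beside 3390, 4779 and 4097 in the members.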

How the data were processed

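The authors deposited, per the labels, raw UMI counts from 10x single-cell libraries of mouse bone marrow (3' v3.1 chemistry), 1 table per library. Cell Ranger 5.0.1 and the mm10 build are named in the submitters' processing notes. Counts were summed over member cells and divided by the members' total, per 1000000 UMIs (CPM). Genes averaging at least 10 CPM across the 3 libraries were compared, and 2-fold was the limit for a call. With 1 library a group there was no test. Ratios have exact conditional binomial intervals, levels exact Poisson intervals and shares exact Clopper-Pearson intervals, at 95%, and all cover counting error only.

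Doublets were scored with Scrublet in scanpy 1.11.5 and kept, since leaving them out was an alternative. Named genes averaged at least 50 CPM and were the first 10 higher and 10 lower in MI over Sham and the first 6 each way in the other comparisons, ranked by the interval's bound nearest 1. Rule genes, immunoglobulin and T cell receptor segments, mitochondrial, ribosomal and model genes were left out, and so was any gene that in both libraries compared stayed below 0.5 times its level over all cells. Of each list the 4 most abundant genes and those past 2-fold were added. The members and lists were chosen with earlier results of these data known. Python 3.11.15, numpy 2.4.6, scipy 1.17.1 and pandas 2.3.3 were used, and the ratio intervals were tested on simulated data. Some genes that this rule names are not reported here.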

Additional observations from a re-analysis of the deposited data

How the results depend on the processing

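No paired analysis was possible because each group has 1 library. As log2 ratios, the share of members among all cells was 1.196 for MI over Sham, 1.080 for MI-E over Sham and -0.1161 for MI-E over MI. It was 1.613 and 1.489 against Sham with at least 2 Cxcr2 UMIs, 0.9746 and 0.8959 with no Cxcr2 condition, and 0.8551 and 0.8623 with granule genes under 0.5%. With granule genes under 2% it was 1.439 for MI over Sham. As a share of the neutrophil window it was -0.5022 and -0.1752 against Sham, turning direction, and 0.3269 for MI-E over MI. The number of genes tested differed by setting, so each count is given with its share of them. Genes at least 2-fold higher in MI than in Sham numbered 197 (2.64% of 7473). With at least 2 Cxcr2 UMIs they numbered 296 (3.995% of 7409). With granule genes under 0.5% they were 314 (4.17% of 7524), and with S100 genes of at least 5% 337 (4.81% of 7000). Without doublets they were 460 (6.78% of 6787), and without cells holding Ly6c2, Csf1r or F13a1 517 (8.33% of 6205). After thinning to 800 UMIs they were 533 (8.74% of 6095), and with cells weighted equally 306 (4.73% of 6472). At a mean of at least 50 CPM they were 52 (1.90% of 2739). Genes lower in MI numbered 257 (3.44%), and 523 (8.43%) without those monocyte genes. They were 547 (8.97%) after thinning, 409 (6.89% of 5934) under 4000 UMIs and 81 (2.96%) at 50 CPM. For MI-E over Sham the counts were 166 (2.22%) higher and 191 (2.56%) lower, and 535 (8.62%) and 576 (9.28%) without the monocyte genes. They were 471 (7.73%) and 484 (7.94%) after thinning and 42 (1.53%) and 45 (1.64%) at 50 CPM, with 310 (5.22%) lower under 4000 UMIs. For MI-E over MI they were 24 (0.321%) higher and 18 (0.241%) lower. The higher count was 46 (0.611%) with granule genes under 0.5%, 45 (0.663%) without doublets and 228 (3.67%) without the monocyte genes. It was 207 (3.40%) after thinning, 48 (0.742%) with equal weights, 70 (1.18%) under 4000 UMIs and 7 (0.256%) at 50 CPM. The lower count was 29 (0.391%) with at least 2 Cxcr2 UMIs, 11 (0.148% of 7433) with granule genes under 2% and 41 (0.586%) with S100 genes of at least 5%. It was 132 (1.94%) without doublets, 364 (5.87%) without the monocyte genes and 261 (4.28%) after thinning. With equal weights it was 57 (0.881%), under 4000 UMIs 96 (1.62%) and at 50 CPM 4 (0.146%). Among single genes, Bst2 turned to 0.62 in MI over Sham without the monocyte genes, and Hist1h2ap to -0.77 in MI-E over Sham. Car1 turned to 2.41 in MI-E over Sham after thinning, and in MI-E over MI to 0.54 after thinning and 0.18 under 4000 UMIs. The cause was not tested. Smaller sums of UMIs limit how exact these ratios are.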
